A study of Homo sapiens with 6 samples.

Results

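Cytosolic and mitochondrial molecular chaperones were examined in RNA-sequencing libraries labelled as the hepatocellular carcinoma cell line HepG2. The cells had been transfected with an siRNA against the long non-coding RNA HOTAIR (siHOTAIR) or with a negative control siRNA (siNC). The labels give 3 libraries per group. The set was defined by gene symbol and holds 54 genes of the 19589 features in the authors' deposited table: heat shock factors, HSP90, HSP70 and HSP40 proteins, small heat shock proteins, co-chaperones, HSP60 with HSP10, and the CCT chaperonin. All 54 were found, 53 by symbol and HSPB11 by a synonym. The comparison asked which genes change when HOTAIR is depleted.

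Chaperones bind unfolded proteins and use ATP-driven cycles to fold, hold or pass them on. HSP40 proteins, which carry a J domain, deliver clients to HSP70 and start ATP hydrolysis, and nucleotide exchange factors such as the HSP110 and BAG proteins let the client go. HSP90 finishes the folding of kinases and steroid receptors with its own co-chaperones, CCT folds actin and tubulin in a closed chamber, and HSP60 with HSP10 does the same in mitochondria. Heat shock factor 1 (HSF1) switches on many of these genes under stress by binding inverted repeats of the short sequence GAA in their promoters.

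Those repeats are shown first, because genes that carry them moved in both directions. The run below each name comes from the RefSeq table of the 250 bases before and 50 bases after a transcription start (GRCh38.p14), read 5′ to 3′ on the gene's strand, and capitals mark GAANNTTC or TTCNNGAA, each of which is its own reverse complement. Where matches overlap, the capitals run through all of them, and 1 run is shown per gene.
HSP90AA1, chr14:102087114-102087138, minus strand: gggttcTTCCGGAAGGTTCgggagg
HSPD1, chr2:197500062-197500090, minus strand: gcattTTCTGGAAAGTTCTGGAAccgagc
HSPA8, chr11:123062173-123062197, minus strand: ggccccTTCTGGAAGGTTCtaagat
HSPA1A, chr6:31815431-31815450, plus strand: accctgGAATATTCccgacc
HSPA1B, chr6:31827627-31827646, plus strand: cccctgGAATATTCccgacc
DNAJB1, chr19:14518431-14518450, minus strand: gctctgGAAGCTTCcgccgg
HSP90AA1 and HSPD1 were higher in siHOTAIR cells, HSPA1A, HSPA1B and DNAJB1 were lower, and HSPA8 did not pass the test. Of 47 members with a promoter window, 19 (40.4%) held at least 1 match and 8 held at least 2 in 1 window. Among 11190 genes with a window and an adjusted p, 13.6% held at least 1 and 1.65% at least 2, and of all 35116 windows 13.5% held at least 1. A call here is an adjusted p under 0.05 in the authors' deposited table, which 40.4% of all tested features reached. Of the 19 members with a match, 3 were called higher, 6 lower and 10 neither, and their median log2 fold change was -0.12. The called ones not shown above are HSP90AB1, which was higher, and CCT2, HSPA4L and TCP1, which were lower. Of the 28 without a match, 7 were called higher, 7 lower and 14 neither, with a median of -0.02. A match describes letters in this window and is not evidence of binding.

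Of the 54 chaperone genes, 12 were higher in siHOTAIR cells and 14 were lower, where a call is an adjusted p under 0.05 (DESeq2, Benjamini-Hochberg) in the authors' deposited table. Calls were common in that table: 40.4% of 14597 features passed, 20% higher and 20.4% lower. The share among the chaperones was 48.1%. Most chaperone genes are abundant, and of the 9193 features with a mean normalized count of at least 100, a group that includes 51 of the 54 genes, 52.6% were called, 27% higher and 25.6% lower. The number of calls among the chaperones is therefore near the background. Changes were small: the called chaperone genes had a median absolute log2 fold change of 0.45, against 0.54 for all called features. The value of 0.54 covers features of every abundance, and sizes at matched abundance were not compared. Of the 54 genes, 6 were called at 1.5-fold or more, against 2599 (17.8%) of 14597 features. Over all 54 genes the median log2 fold change was -0.07, against 0.01 over all features with an adjusted p. The 28 genes that did not pass lay between -0.19 and 0.26.

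**Figure D1:**
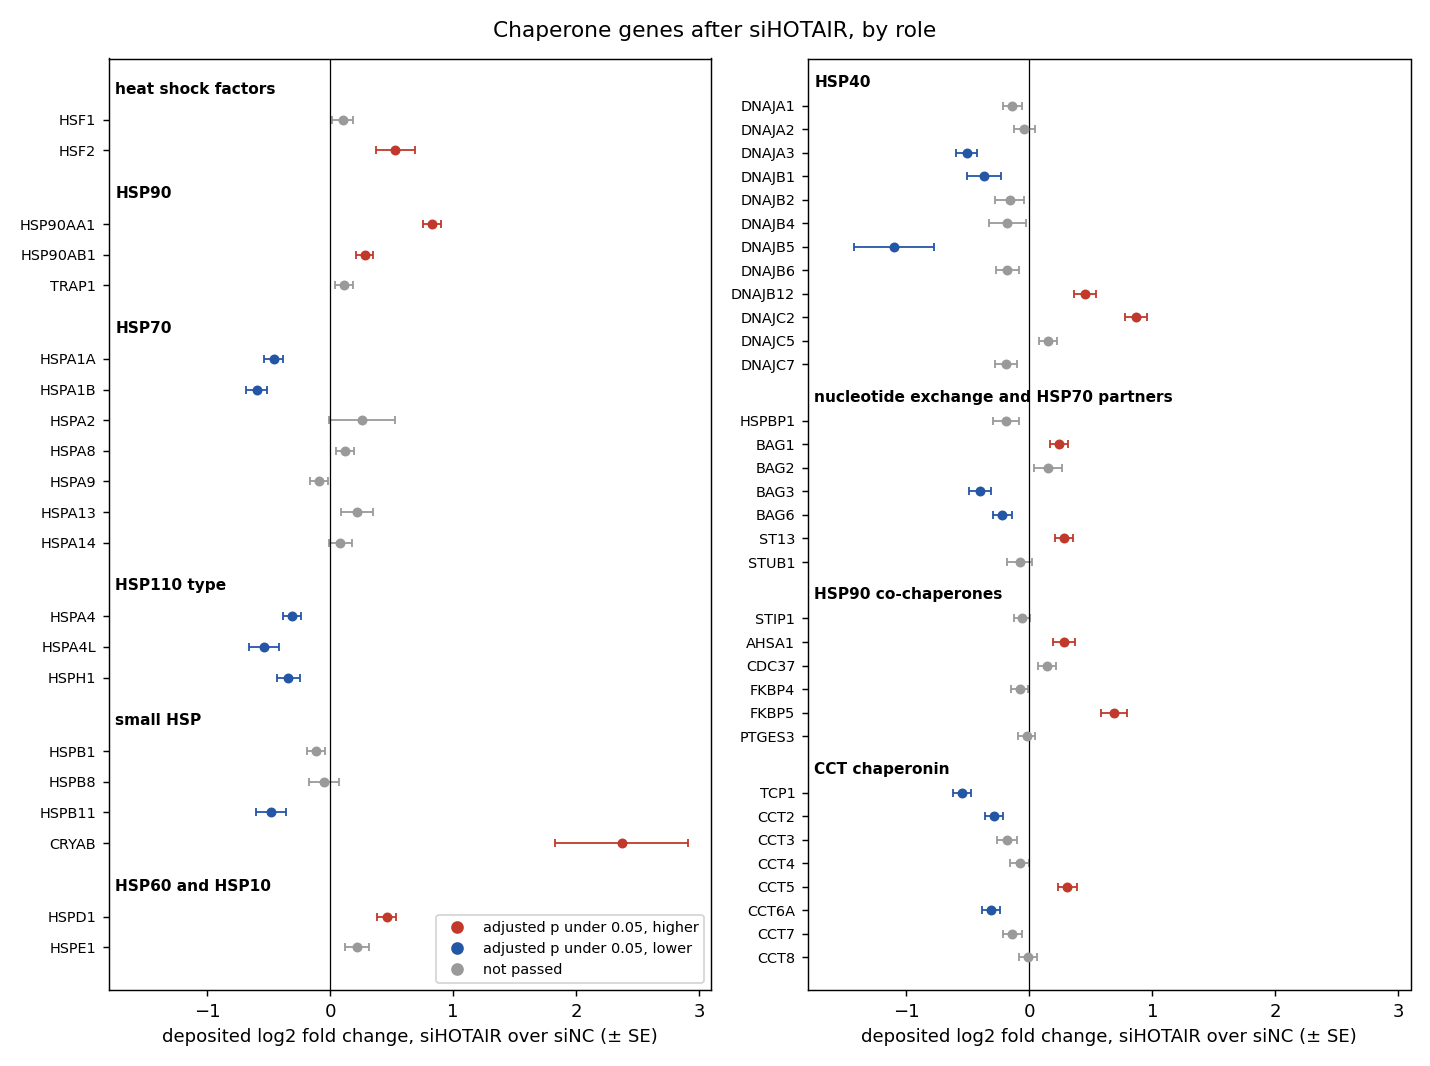
Log2 fold changes of the 54 chaperone genes from the authors' deposited table, siHOTAIR over siNC, with their standard errors, grouped by role. Red points passed higher, blue points passed lower and grey points did not pass: all 3 HSP110 type genes lie left of 0, and HSP90AA1, DNAJC2, FKBP5 and CRYAB lie farthest right.

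The deposited means resolve into 5 libraries, 3 siHOTAIR and 2 siNC, so 1 labelled siNC library is not behind them. Reads per library were recovered from the deposited means, fold changes and standard errors for 53 of the 54 genes, all except HSPA8. Values below are normalized counts, that is, reads divided by the library's size factor (0.888 to 1.15 in siHOTAIR, 0.893 and 1.19 in siNC). Libraries are given as siHOTAIR a, b and c and siNC a and b, letters that do not stand for the replicate numbers of the labels. No label says whether the libraries came from separate cultures, so p-values measure the spread between libraries. HOTAIR itself had 62.4, 78.2 and 59.7 normalized counts in the siHOTAIR libraries, against 202 and 150 in the siNC libraries, with a log2 fold change of -1.37 ± 0.197 (SE; DESeq2 adjusted p = 5.6e-11) in the authors' deposited table. Of 14 hepatocyte and HepG2 marker genes, 7 had rows, with mean normalized counts of 0.167 to 5.06, the highest being HNF4A, and the other 7 were not analysed here. The sum over 6 of them was 2.6 to 10.7 in siHOTAIR and 5.02 and 6.72 in siNC libraries. These values go against the label HepG2, which is used here only as the name of the samples. Of 7 fibroblast markers, 6 had rows, 3 were higher and none was lower. The sum over 5 of them was 2144 to 2545 normalized counts in siHOTAIR and 1240 in both siNC libraries. Most of that sum was COL1A1, with 1755, 1929 and 2144 in siHOTAIR and 1051 and 1078 in siNC libraries. PDGFRB had a mean of 254, while COL3A1, DCN, THY1 and LUM were scarce, with means of 26.7, 12.8, 11.2 and 3.04. COL3A1 and THY1 did not pass. Of 4 squamous markers, 3 had rows, and 2 of them summed to 6.42 to 11.3 in siHOTAIR and 4.48 and 8.37 in siNC libraries. Of 3 leukocyte markers only 1 had a row, so a leukocyte signal cannot be judged from them. That gene, CD68, was lower, with 143, 140 and 117 in siHOTAIR and 177 and 197 in siNC libraries. The part of these markers in the chaperone results was not tested. A change in RNA per cell and a change in the mix of cells cannot be told apart in these libraries.

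The siHOTAIR libraries lay entirely above both siNC libraries for 18 of the 53 recovered genes and entirely below for 21, while 14 overlapped. Together that is 73.6% without overlap, against 62.8% of 14297 recovered features, of which 30.7% lay above and 32.1% below. Those features are of every abundance, whereas 51 of the 54 genes have a mean of at least 100. No share at matched abundance was computed, so the difference is not read as a trait of the chaperones. All 26 called genes were among the 39 without overlap, as were 13 genes that did not pass.

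**Figure D2:**
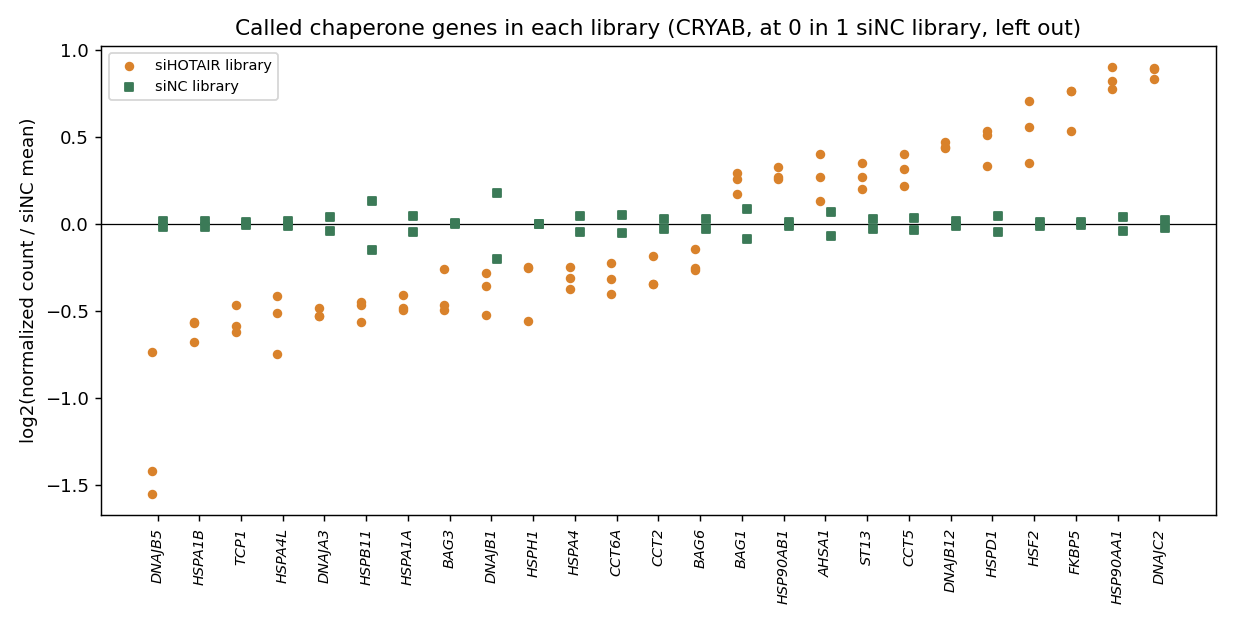
Each called chaperone gene except CRYAB in each library, as log2 of the normalized count over the mean of the siNC libraries; circles are siHOTAIR and squares are siNC libraries. Within each gene the circles and squares do not overlap, and DNAJB1, HSPB11, BAG1 and AHSA1 have the widest spread between siNC libraries.

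The heat shock factor genes gave 1 call. HSF2, a factor that forms complexes with HSF1 and acts in development, had 187, 162 and 207 normalized counts in siHOTAIR libraries, against 126 and 128 in siNC libraries. All siHOTAIR libraries were above both siNC libraries, and in the authors' deposited table the log2 fold change was 0.53 ± 0.162 (SE; DESeq2 adjusted p = 0.00372). HSF1 had 1229, 1238 and 1439 in siHOTAIR libraries, against 1206 and 1219 in siNC libraries. For HSF1 the authors' deposited table gives 0.10 ± 0.0833 (SE; DESeq2 adjusted p = 0.357), and the library at 1439 sits well above the other 4.

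Both cytosolic HSP90 genes were higher in siHOTAIR cells, the stress-inducible HSP90AA1 by more than the constitutive HSP90AB1. HSP90AA1 had 13386, 13781 and 14584 normalized counts in siHOTAIR libraries, against 7585 and 8040 in siNC libraries. The groups were far apart, and the authors' deposited table gives a log2 fold change of 0.83 ± 0.0734 (SE; DESeq2 adjusted p = 1e-27), or 1.78-fold. HSP90AB1 had 15641, 16441 and 15774 in siHOTAIR libraries, against 13001 and 13173 in siNC libraries. Its log2 fold change in the authors' deposited table was 0.28 ± 0.0691 (SE; DESeq2 adjusted p = 0.000199). Leaving out siHOTAIR library b ended the HSP90AB1 call in a limma fit over all recovered features (log2 fold change 0.26, adjusted p = 0.0714), against 0.29 with all libraries. Per kilobase of the longest transcript, the ratio of HSP90AA1 to HSP90AB1 levels was 0.652, 0.639 and 0.704 in siHOTAIR libraries, against 0.444 and 0.465 in siNC libraries. HSP90AB1 thus stayed the more abundant of the pair in all 5 libraries, while the ratio was 46.2% higher in siHOTAIR. Summed, the pair reached 143% of its siNC mean. The 2 longest transcripts share no run of 50 bases, so reads of that length from these 2 genes can be told apart. Reads from pseudogene copies of HSP90 genes were not examined. TRAP1, the mitochondrial HSP90, had 3209, 3255 and 3229 in siHOTAIR libraries, against 2816 and 3158 in siNC libraries, and did not pass.

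The co-chaperones that steer HSP90 gave 2 higher calls among 6 genes and none lower. FKBP5, an immunophilin that lowers the hormone binding of HSP90-bound glucocorticoid receptor, had 658, 659 and 561 normalized counts in siHOTAIR libraries, against 390 and 385 in siNC libraries. The lowest siHOTAIR library was well above both siNC libraries, and the authors' deposited table gives a log2 fold change of 0.69 ± 0.105 (SE; DESeq2 adjusted p = 8.21e-10). AHSA1, the activator of the HSP90 ATPase, had 1264, 1157 and 1052 in siHOTAIR libraries, against 913 and 1004 in siNC libraries, a narrower gap. AHSA1 has a log2 fold change of 0.28 ± 0.0895 (SE; DESeq2 adjusted p = 0.00701) in the authors' deposited table, and this call was lost in limma without siHOTAIR library a (log2 fold change 0.21, adjusted p = 0.0513) or without siNC library a (0.20, adjusted p = 0.116), against 0.27 with all libraries. The related immunophilin FKBP4, with 2121, 2194 and 2264 in siHOTAIR libraries against 2199 and 2440 in siNC libraries, did not pass. STIP1, which bridges HSP70 and HSP90, CDC37, which brings kinases, and PTGES3, the p23 protein that holds the closed state, did not pass either, with log2 fold changes of -0.06, 0.14 and -0.02 in the authors' deposited table.

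The stress-inducible HSP70 pair was lower in siHOTAIR cells, whereas none of the other 5 HSP70 genes passed. HSPA1A had 960, 902 and 909 normalized counts in siHOTAIR libraries, against 1316 and 1230 in siNC libraries. HSPA1B had 745, 743 and 687 in siHOTAIR libraries, against 1089 and 1115 in siNC libraries. For neither gene did the groups come close to overlapping. In the authors' deposited table HSPA1A has a log2 fold change of -0.46 ± 0.0787 (SE; DESeq2 adjusted p = 5.13e-08) and HSPA1B one of -0.60 ± 0.0826 (SE; DESeq2 adjusted p = 7.83e-12). These neighbouring genes encode nearly the same protein, and 72.6% of the 50-base runs in the longest HSPA1A transcript also occur in HSPA1B, so the split of reads between them is uncertain. Their sum does not depend on that split as long as shared reads were counted: it was 1705, 1645 and 1596 in siHOTAIR libraries, against 2405 and 2345 in siNC libraries, or 69.4% of the siNC mean.

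HSPA8, the constitutive cytosolic HSP70, had a mean of 9865 normalized counts over the libraries and a log2 fold change of 0.12 in the authors' deposited table (DESeq2 adjusted p = 0.215). It has 17 annotated pseudogenes, which may share its reads. HSPA9, the mitochondrial HSP70, had 3965, 3690 and 3463 in siHOTAIR libraries, against 4025 and 3874 in siNC libraries, and the groups overlapped. HSPA14, which works on ribosomes, had 656, 604 and 607 in siHOTAIR libraries, against 568 and 616 in siNC libraries, also overlapping. HSPA13, a microsome-associated relative, had 281, 274 and 252 in siHOTAIR libraries, against 232 and 231 in siNC libraries. The siHOTAIR libraries were above the siNC libraries for HSPA13, but it did not pass (DESeq2 adjusted p = 0.175 in the authors' deposited table). HSPA2, best known from male germ cells, was scarce, with 53.7, 45 and 52.9 in siHOTAIR libraries, against 46 and 37 in siNC libraries, and did not pass.

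All 3 HSP110 type genes, whose products act as nucleotide exchange factors for HSP70, were lower in siHOTAIR cells. HSPA4L had 289, 310 and 246 normalized counts in siHOTAIR libraries, against 409 and 417 in siNC libraries. HSPH1 had 1071, 1067 and 865 in siHOTAIR libraries, against 1271 and 1274 in siNC libraries. HSPA4, the most abundant of the family per kilobase, had 1478, 1544 and 1414 in siHOTAIR libraries, against 1777 and 1889 in siNC libraries. For each gene every siHOTAIR library was below both siNC libraries, and library c was the lowest for all 3 genes. In the authors' deposited table the log2 fold changes were -0.54 ± 0.12 for HSPA4L (SE; DESeq2 adjusted p = 3.55e-05), -0.34 ± 0.0913 for HSPH1 (adjusted p = 0.000809) and -0.31 ± 0.0725 for HSPA4 (adjusted p = 0.000122).

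**Figure D3:**
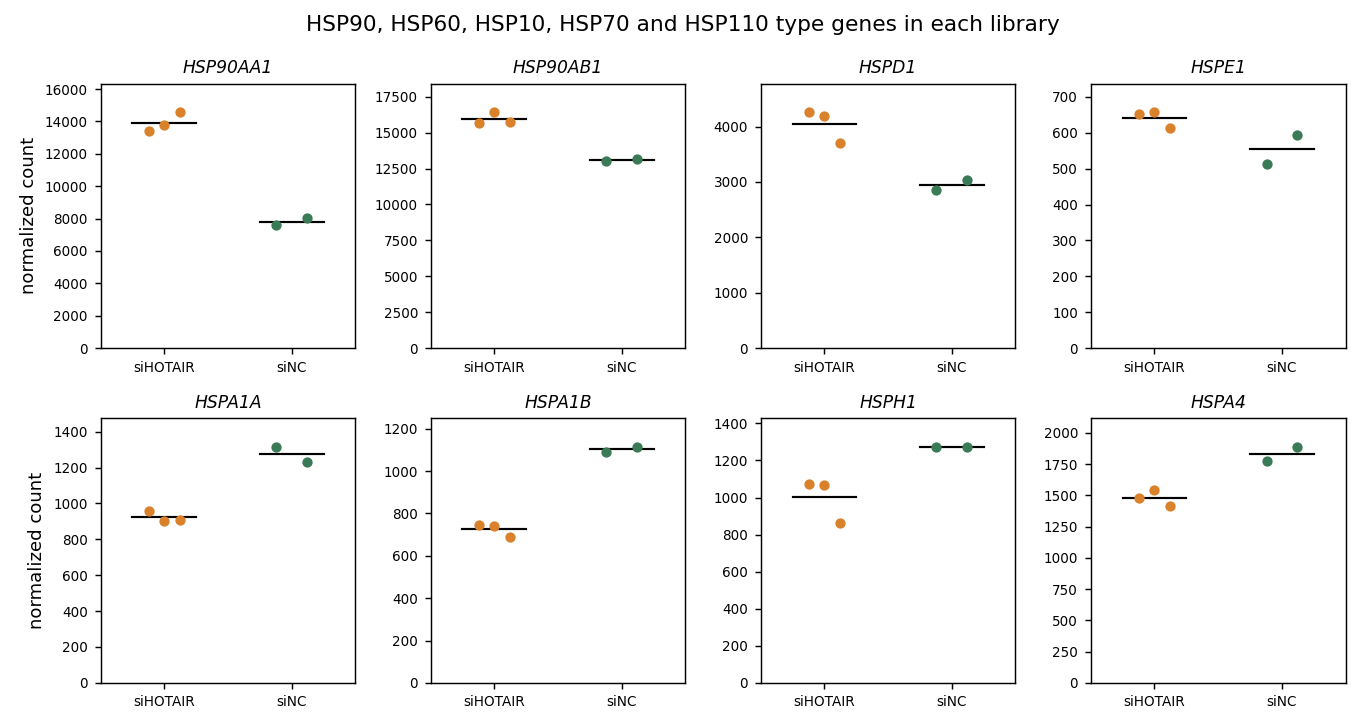
Normalized counts of 8 core chaperone genes in the 3 siHOTAIR libraries (left in each panel) and the 2 siNC libraries (right); bars are group means and each axis starts at 0. The HSP90 genes, HSPD1 and HSPE1 are higher in siHOTAIR libraries and the HSP70 and HSP110 type genes lower; of these 8, HSPE1 did not pass in the authors' deposited table.

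The other exchange factors and partners of HSP70 were divided, with 2 genes higher, 2 lower and 3 that did not pass. BAG3, which joins HSP70 to small heat shock proteins and to autophagy, had 832, 719 and 705 normalized counts in siHOTAIR libraries, against 996 and 992 in siNC libraries. BAG6, which guards membrane proteins on their way to insertion or degradation, had 984, 1071 and 991 in siHOTAIR libraries, against 1208 and 1159 in siNC libraries. Both were lower in every siHOTAIR library, with log2 fold changes, from the authors' deposited table, of -0.40 ± 0.0903 for BAG3 (SE; DESeq2 adjusted p = 6.8e-05) and -0.22 ± 0.0787 for BAG6 (adjusted p = 0.0147). BAG1, which links HSP70 to the proteasome, had 2754, 2812 and 2587 in siHOTAIR libraries, against 2163 and 2436 in siNC libraries. ST13, the HIP protein that stabilises the ADP-bound state of HSP70, had 2631, 2493 and 2374 in siHOTAIR libraries, against 2023 and 2109 in siNC libraries. Both were higher in every siHOTAIR library, with 0.24 ± 0.0746 for BAG1 (SE; DESeq2 adjusted p = 0.00429) and 0.28 ± 0.071 for ST13 (adjusted p = 0.000488) in the authors' deposited table. The BAG1 call was lost in limma without siHOTAIR library b (log2 fold change 0.22, adjusted p = 0.0959) or without siNC library a (0.16, adjusted p = 0.183), against 0.24 with all libraries. The BAG6 call was lost without siHOTAIR library a (-0.20, adjusted p = 0.0515) or without siNC library a (-0.19, adjusted p = 0.128), against -0.22 with all libraries. ST13 has 16 annotated pseudogenes that may share its reads. The exchange factor HSPBP1, the inhibitor of STUB1 named BAG2 and the ubiquitin ligase STUB1 did not pass, with log2 fold changes of -0.19, 0.15 and -0.08 in the authors' deposited table.

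Of the 12 HSP40 genes, 2 were higher, 3 were lower and 7 did not pass. DNAJC2, the J protein of the ribosome-associated complex, had 835, 875 and 869 normalized counts in siHOTAIR libraries, against 462 and 477 in siNC libraries. The libraries of each group lay close together, and the authors' deposited table gives a log2 fold change of 0.87 ± 0.0904 (SE; DESeq2 adjusted p = 3.91e-20), or 1.82-fold. HSPA14, its HSP70 partner on the ribosome, had a log2 fold change of 0.08 (DESeq2 adjusted p = 0.568) in the authors' deposited table. DNAJB12, an endoplasmic reticulum membrane protein with its J domain in the cytosol, had 736, 754 and 741 in siHOTAIR libraries, against 539 and 550 in siNC libraries. Its log2 fold change of 0.45 ± 0.0896 (SE; DESeq2 adjusted p = 4.6e-06) in the authors' deposited table again goes with groups that were far apart.

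The lower HSP40 genes lie in different compartments. DNAJA3, the mitochondrial J protein, had 694, 674 and 674 normalized counts in siHOTAIR libraries, against 944 and 999 in siNC libraries. It has a log2 fold change of -0.51 ± 0.0841 (SE; DESeq2 adjusted p = 1.69e-08) in the authors' deposited table, while its partner HSPA9 did not pass. DNAJB5, a cytosolic class B protein, had 17.3, 27.8 and 15.8 in siHOTAIR libraries, against 46.9 and 45.9 in siNC libraries. Although scarce, DNAJB5 kept the groups apart and has the steepest decrease of the 54 genes in the authors' deposited table, -1.10 ± 0.327 (SE; DESeq2 adjusted p = 0.00292). DNAJB1, the main stress-inducible cytosolic HSP40, had 236, 249 and 210 in siHOTAIR libraries, against 263 and 342 in siNC libraries. The authors' deposited table gives DNAJB1 -0.37 ± 0.138 (SE; DESeq2 adjusted p = 0.0215), but the size rests on siNC library b: without it limma gave a log2 fold change of -0.19 (adjusted p = 0.298), against -0.37 with all libraries, and without siNC library a it gave -0.56 (adjusted p = 0.000985). Those that did not pass were the class A proteins DNAJA1 and DNAJA2, the aggregation-preventing DNAJB2 and DNAJB6, DNAJB4, the vesicle protein DNAJC5 and DNAJC7, which also binds HSP90. In the authors' deposited table their log2 fold changes ran between -0.19 for DNAJC7 and 0.15 for DNAJC5. For DNAJA1, the most abundant of them per kilobase, the libraries had 1775, 1812 and 1620 normalized counts in siHOTAIR, against 1824 and 2011 in siNC.

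The small heat shock genes did not move together. CRYAB, the αB-crystallin that is abundant in lens and muscle, had 24, 11 and 18 reads in siHOTAIR libraries, against 3 and 0 in siNC libraries. That is 20.8, 11.8 and 20.3 normalized counts in siHOTAIR libraries, against 2.51 and 0 in siNC libraries. All siHOTAIR libraries were above the siNC libraries, at the lowest mean level of the 54 genes, and the authors' deposited table gives a log2 fold change of 2.37 ± 0.543 (SE; DESeq2 adjusted p = 7.17e-05) that is shrunken toward 0 and rests on few reads. CRYAB was also the 1 gene of the 54 in the authors' deposited list of changed features, where it is marked as up. That list holds 766 of 19589 features, so 1 gene of 54 is no excess over the share of all features. HSPB11, named as a small heat shock protein but known as the intraflagellar transport protein IFT25, had 290, 286 and 267 in siHOTAIR libraries, against 357 and 434 in siNC libraries. HSPB11 has a log2 fold change of -0.48 ± 0.121 (SE; DESeq2 adjusted p = 0.000359) in the authors' deposited table. HSPB1, the actin-protecting HSP27, had 5069, 5200 and 5073 in siHOTAIR libraries, against 5231 and 5881 in siNC libraries. HSPB8, the partner of BAG3, had 308, 321 and 283 in siHOTAIR libraries, against 288 and 344 in siNC libraries. Neither HSPB1 nor HSPB8 passed, and the groups overlapped for HSPB8.

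In mitochondria the chamber protein HSP60, encoded by HSPD1, was higher in siHOTAIR cells. HSPD1 had 4263, 4188 and 3702 normalized counts in siHOTAIR libraries, against 2850 and 3039 in siNC libraries. The authors' deposited table gives a log2 fold change of 0.46 ± 0.0778 (SE; DESeq2 adjusted p = 3.89e-08). HSPE1, which encodes the lid HSP10 and shares a bidirectional promoter with HSPD1, had 653, 658 and 612 in siHOTAIR libraries, against 513 and 594 in siNC libraries. The siHOTAIR libraries were all above the siNC libraries, but HSPE1 missed the threshold with a log2 fold change of 0.22 (DESeq2 adjusted p = 0.0634) in the authors' deposited table and passed in limma (adjusted p = 0.0434). Without siNC library a the limma fold change of HSPE1 dropped to 0.11, and without siNC library b it was 0.32. Per kilobase the ratio of HSPD1 to HSPE1 was 2.53, 2.46 and 2.34 in siHOTAIR libraries, against 2.15 and 1.98 in siNC libraries. HSPD1 and HSPE1 have 17 and 26 annotated pseudogenes, so reads from such copies may be in or missing from these counts. The mitochondrial members thus differ: HSPD1 was higher, DNAJA3 lower, and HSPA9, TRAP1 and HSPE1 did not pass.

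The 8 CCT subunits, each of which has its own place in the rings of the complex, did not change in step: 1 was higher, 3 were lower and 4 did not pass. TCP1, the subunit CCT1, had 1322, 1220 and 1190 normalized counts in siHOTAIR libraries, against 1819 and 1840 in siNC libraries. CCT5 had 7291, 6866 and 6428 in siHOTAIR libraries, against 5401 and 5655 in siNC libraries. The groups were apart for both genes but in opposite directions, with log2 fold changes, from the authors' deposited table, of -0.55 ± 0.0738 for TCP1 (SE; DESeq2 adjusted p = 1.49e-12) and 0.31 ± 0.0757 for CCT5 (adjusted p = 0.000205). Per kilobase the ratio of CCT5 to TCP1 was 3.75, 3.83 and 3.67 in siHOTAIR libraries, against 2.02 and 2.09 in siNC libraries. The ratio was 82.5% higher in siHOTAIR and does not depend on the size factors. CCT5 and TCP1 have the highest and lowest log2 fold changes of the 8 subunits, so their ratio restates those changes and is no separate result. CCT2 had 2117, 1897 and 1894 in siHOTAIR libraries, against 2360 and 2459 in siNC libraries. CCT6A had 3680, 3447 and 3248 in siHOTAIR libraries, against 4135 and 4453 in siNC libraries. Both were lower in every siHOTAIR library, with -0.29 ± 0.0734 for CCT2 (SE; DESeq2 adjusted p = 0.000414) and -0.31 ± 0.0748 for CCT6A (adjusted p = 0.000184) in the authors' deposited table. CCT3 had 5495, 5277 and 4943 in siHOTAIR libraries, against 5566 and 6353 in siNC libraries, and narrowly missed the threshold (DESeq2 adjusted p = 0.0518 in the authors' deposited table). CCT4, CCT7 and CCT8 had log2 fold changes of -0.08, -0.14 and -0.01 in that table and overlapped between groups.

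**Figure D4:**
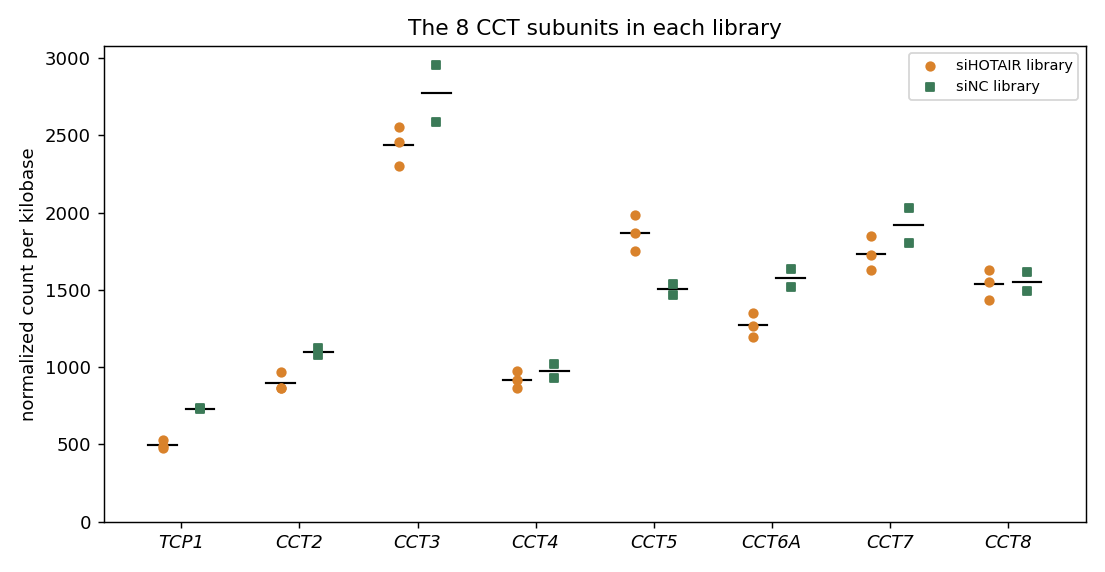
Normalized counts per kilobase of the longest transcript for the 8 CCT subunits; circles are siHOTAIR and squares siNC libraries, and bars are group means. TCP1 is the lowest and CCT3 the highest subunit in all 5 libraries, and CCT5 is the 1 subunit whose siHOTAIR libraries all lie above the siNC libraries.

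Summed over the 8 subunits, the libraries held 29381, 27627 and 26071 normalized counts in siHOTAIR, against 28271 and 30688 in siNC. The groups overlapped, and the siHOTAIR mean was 93.9% of the siNC mean. Per kilobase CCT3, the highest subunit, was 4.83, 5.03 and 4.83 times TCP1, the lowest, in siHOTAIR libraries. In siNC libraries CCT3 was 3.56 and 4.01 times TCP1. That ratio follows the lower TCP1 level, as CCT3 did not pass, and does not describe the spread of all 8 subunits.

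Genes next to these in the same pathways also changed in both directions, as did the tested features as a whole. Over all of those, 40.4% were called, 20% higher and 20.4% lower, and 52.6% at means of at least 100. The shares of each list below are to be read beside these values. Of 14 genes for prefoldin and other CCT cofactors, 3 were higher, 3 were lower and 8 did not pass, a share called of 42.9%. In the authors' deposited table the tubulin cofactor TBCE had a log2 fold change of -0.85 and the prefoldin subunits PFDN2 and PFDN6 had -0.41 and -0.39, while PFDN4 had 0.59, the prefoldin-like URI1 0.55 and PFDN5 0.24. Of 21 further HSP90 co-chaperones, 2 were higher and 4 lower, a share of 28.6%. RUVBL1, an ATPase of the R2TP complex that works with HSP90, had 327, 294 and 317 normalized counts in siHOTAIR libraries, against 603 and 657 in siNC libraries. The siHOTAIR libraries lay close together and far below siNC, with a log2 fold change of -1.0 in the authors' deposited table, and PIH1D1 of the same complex had -0.34. The CDC37 relative CDC37L1 had -1.19, while TELO2, which receives kinases of the PIKK family from HSP90, had 0.63 and the myosin chaperone UNC45A 0.45 in the authors' deposited table.

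Of 21 further mitochondrial chaperones and proteases, 7 were higher and 4 lower, a share of 52.4%. The protease LONP1 had a log2 fold change of 0.42, the import factor DNAJC15 0.47 and the disaggregase CLPB 0.41, while CLPX had -0.57, DNAJC11 -0.38 and the protease OMA1 -1.04 in the authors' deposited table. Of 31 further J-domain, HSP70, BAG and related genes with an adjusted p, 7 were higher and 5 lower, a share of 38.7%. The endosomal DNAJC13 had 221, 209 and 225 normalized counts in siHOTAIR libraries, against 588 and 561 in siNC libraries, with a log2 fold change of -1.38 in the authors' deposited table, a larger decrease than that of any of the 54 chaperone genes. DNAJC8 and BAG5 had -1.01 and -1.04 in that table, and DNAJC1, HSPB7 and DNAJC14 had 0.75, 0.50 and 0.58.

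A further list of 21 HSF1 targets holds 6 genes of the set described above. Among the other 15 there was 1 higher call and 8 lower, a share of 60%, with a median log2 fold change of -0.35. The list is not complete and was chosen with earlier results of these data known. It leaves out members shown above with promoter matches, of which HSP90AA1 and HSPD1 were higher, HSPA1A and HSPA1B lower, and HSPA8 did not pass. Also left out are other members with a match, among them HSP90AB1, which was higher, and CCT2 and HSPA4L, which were lower. Over all tested features 20% were called higher and 20.4% lower, and at means of at least 100 these shares were 27% and 25.6%. The stress gene GADD45B had -0.96 and the mitochondrial ribosomal gene MRPL18 -0.51, and the 1 higher gene was the collagen chaperone SERPINH1 with 0.28, all in the authors' deposited table. The chaperones of the endoplasmic reticulum, a separate folding system, gave 4 higher and 1 lower call of 16, a share of 31.2%. SDF2L1 had 0.76, PDIA3 0.41 and PDIA4 0.40, while HYOU1, the HSP110 type protein of that compartment, had -0.48 in the authors' deposited table.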

How the data were processed

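Total RNA was depleted of ribosomal RNA and made into stranded libraries, per the labels' protocols. Among the authors' tools, HTSeq 0.6.1, DESeq and DESeq2 are named with the build hg19, per the submitters' processing notes. For the aligner, annotation and strand setting no name or value is given in these sources. Whether reads of a gene and of an antisense neighbour were kept apart in the counting is therefore not known. The deposited signal is a mean normalized count, with each library's reads scaled by its size factor before averaging. The authors also deposited log2 fold changes shrunken toward 0, their standard errors, a score that divides one by the other, and raw and adjusted p-values. There are 0 columns of single libraries.

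Because the deposited means are sums of whole reads times fixed steps, reads per library were recovered: a set of reads was kept when it gave the deposited mean and, with a normal prior of SD 1.193 on the log2 scale fitted to the table, the deposited fold change and standard error. This gave 1 solution for 99.8% of 14321 features with means up to 4000, with fold changes matched within 2e-06. The tolerances were set after seeing these residuals. The recovery and the limma fit were tried on simulated data with known answers. Above a mean of 4000 only listed genes were tried, among sets of reads in which libraries of a group differ by up to about 20% from their fitted mean. For HSP90AA1, HSP90AB1, HSPB1, CCT3 and CCT5, 1 set matched within the tolerance of 1.5e-07 in log2 fold change; the next best set with the deposited mean was off by 1.65e-06 for HSP90AA1, 8.99e-07 for HSP90AB1, 2.12e-05 for HSPB1 and 4.31e-05 for CCT5, and CCT3 had no other set. HSPA8 had 2 sets within the tolerance and is given by its deposited values. Because the files hold no counts per library, the main calls are the authors' (adjusted p under 0.05), and limma 3.58.1 (R 4.3.3) on log2(normalized count + 1), with Benjamini-Hochberg adjustment over 11801 features with a mean of at least 20, is an alternative added after the data were seen. The fit planned for features with means of 20 to 100 covers 2905 features and, of the set, DNAJB5 and HSPA2. Levels per kilobase use the longest transcript in GENCODE 29, and pseudogene counts come from the same release. These counts cover only names that add P and a number to the gene symbol, so copies named otherwise are missed.

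Groups came from the library titles. The named genes were every member by role, and of each related list up to 3 called genes per direction with the smallest p. The members and lists were chosen with earlier results of these data known. Alternatives were a threshold of 0.01, a 1.5-fold minimum, centring, Holm adjustment, a mean of at least 100, a pseudocount of 0.5, limma-voom and leaving out each library. The deposited means average about 9.41e+06 normalized counts per library.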

Additional observations from a re-analysis of the deposited data

How the results depend on the processing

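The 12 higher and 14 lower calls among the 54 genes became 4 and 2 with a minimum change of 1.5-fold, and 5 and 4 with Holm adjustment. They were 12 and 12 at a threshold of 0.01, and stayed within 1.5 times of the main counts when centred, limited to means of at least 100, or read from the authors' other table. With limma over all recovered features, without HSPA8 and CRYAB, the counts were 12 and 14 (limma-voom 12 and 15), and leaving out 1 library gave 9 to 12 higher and 13 to 17 lower. Calls gained under these fits were CCT3 (adjusted p = 0.0426 centred and 0.0313 with limma-voom, 0.0233 without siHOTAIR library a and 0.0142 without siNC library a), HSPE1 (0.0434 with limma, 0.0357 with limma-voom, 0.0289 without siHOTAIR library c and 0.0164 without siNC library b), CCT7 (0.0476 without siHOTAIR library a and 0.0466 without siNC library a), DNAJC7 (0.0246 and 0.0431 without the same libraries), DNAJB6 (0.0266 without siHOTAIR library a) and HSPBP1 (0.0137 without siNC library a). Calls lost were those given above for HSP90AB1, AHSA1, BAG1, BAG6 and DNAJB1. The cause was not tested.

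Leaving out 1 library turned the sign of 4 genes that did not pass, whose log2 fold changes ran from -0.18 to 0.08 for HSPB8, from -0.13 to 0.00 for STIP1, from -0.06 to 0.01 for PTGES3 and from -0.07 to 0.04 for CCT8 (0.03 without siHOTAIR library c). In the planned limma fit, DNAJB5 had a log2 fold change of -1.20 (adjusted p = 0.000492), running from -1.44 to -1.04 without 1 library and past the threshold each time, and HSPA2 ran from 0.13 to 0.44 without passing. No paired analysis was possible because the recovered libraries cannot be tied to the replicate numbers of the labels. With 2 siNC libraries the spread of that group rests on 1 difference per gene, and the fits that leave 1 siNC library assume that it varies like the siHOTAIR libraries. Standard errors of the deposited log2 fold changes ran from 0.0687 to 0.543 over the 54 genes, with the largest for CRYAB, so depth limits CRYAB, DNAJB5 and HSPA2 most.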
